A study of Mus musculus with 6 samples.

Results

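Collagens, laminins and the proteins that join them form the basement membranes and the connective tissue of an organ. The genes described here are those whose symbol names a collagen chain, a laminin chain, nidogen 1 or 2 (Nid1, Nid2), perlecan (Hspg2), fibronectin (Fn1) or SPARC (Sparc). Of 24407 genes counted in pancreatic islets, which hold the endocrine cells of the pancreas, 60 met this rule, and 47 of them had counts high enough to be tested. The comparison was between a wild-type group (WT) and a group, named LCS, that makes lamin C in place of lamin A from its Lmna gene. Lamins line the inside of the nuclear membrane. Both groups were C57BL/6 mice of 70 weeks on a regular chow, and the LCS allele was the one labelled difference between them. Each group had 3 libraries, and each library held the pooled islets of 3 mice, so a value is a mean over animals that cannot be taken apart. Sex, litter and date of preparation were not labelled.

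A basement membrane is a thin sheet built from a laminin network and a collagen IV network, which nidogens and perlecan tie together. In mouse islets such sheets surround the capillaries, and β cells rest on this vascular basement membrane, whose chains are made largely by endothelial cells. Fibrillar collagens, by contrast, are made mainly by fibroblasts, stellate cells and related stromal cells. In whole islets, fewer cells of a type and less RNA per cell cannot be told apart.

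The 2 chains of the most widespread collagen IV network, Col4a1 and Col4a2, lie head to head on chromosome 8, and their counts are described below as a pair. Their promoter windows, from 250 bases before to 50 after the start site, are shown together with that of Col1a2, a chain of the fibrillar type I collagen, whose counts varied far more between libraries. Sequences are from RefSeq, build GRCm38.p6, on the strand of each gene. Capitals mark CCAAT (the CCAAT box) and GGGCGG (a GC box), searched on both strands, so that they also appear as ATTGG and CCGCCC.
Col4a1, chr8:11312777-11313076 (minus strand): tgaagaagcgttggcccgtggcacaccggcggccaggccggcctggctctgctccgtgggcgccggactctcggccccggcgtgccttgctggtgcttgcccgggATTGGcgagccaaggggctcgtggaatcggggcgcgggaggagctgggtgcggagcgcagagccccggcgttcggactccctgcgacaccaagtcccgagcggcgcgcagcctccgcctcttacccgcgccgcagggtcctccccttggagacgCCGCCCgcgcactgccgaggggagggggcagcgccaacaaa
Col4a2, chr8:11312555-11312854 (plus strand): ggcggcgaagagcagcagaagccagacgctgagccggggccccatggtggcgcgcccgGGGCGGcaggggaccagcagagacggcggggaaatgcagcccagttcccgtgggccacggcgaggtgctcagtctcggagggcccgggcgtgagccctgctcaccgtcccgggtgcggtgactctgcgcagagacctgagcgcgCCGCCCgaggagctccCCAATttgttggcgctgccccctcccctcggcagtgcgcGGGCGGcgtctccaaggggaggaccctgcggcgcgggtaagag
Col1a2, chr6:4505368-4505667 (plus strand): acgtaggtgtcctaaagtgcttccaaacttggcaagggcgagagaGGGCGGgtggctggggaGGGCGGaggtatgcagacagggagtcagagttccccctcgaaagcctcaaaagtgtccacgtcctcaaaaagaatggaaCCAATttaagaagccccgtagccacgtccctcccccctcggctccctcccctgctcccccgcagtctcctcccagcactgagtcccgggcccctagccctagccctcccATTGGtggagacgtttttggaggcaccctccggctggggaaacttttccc
The Col4a1 and Col4a2 windows share 78 bases, chr8:11312777-11312854, and their annotated start sites lie 21 bases apart on opposite strands. Col4a1 held 1 CCAAT and 1 GGGCGG, Col4a2 1 and 3, and Col1a2 2 and 2. None of these 3 windows held TATAAA. RefSeq gave a window for 43 of the 60 genes. GGGCGG was found in 27 of them (62.8%), against 35.9% of all 27025 promoter windows. CCAAT was found in 32.6% against 37.9%, and TATAAA in 11.6% against 14.2%. These are matches of letters and do not show that a factor binds there. No selection by gene type was made among the 27025 windows, whereas the matrix genes are all protein-coding, so the shares compare unlike sets.

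The libraries held 26123654 to 68036676 counts. The ribosomal RNA precursor Rn45s and 2 rows that followed it (Lars2 and Mir6236) took 52.3 to 54.1% of the LCS counts and 7.64 to 18.5% of the WT counts, which left 19057533 to 32462401 other counts per library. The 60 matrix genes together had 15001 to 32913 counts. Levels are given as CPM, a library's counts for a gene relative to its total, scaled by TMM, a method that sets the bulk of genes level. The 3 values of a genotype always stand in the order of replicates 1 to 3. Lmna, the targeted gene, was counted without telling lamin A from lamin C, so it does not check the genotype. Its level was 62.4, 62 and 78.9 CPM in the LCS libraries and 61.3, 27.3 and 21 CPM in the WT libraries. WT replicate 1 thus lay with the LCS libraries in Lmna, and it also stood apart in many of the matrix genes, so results are given with and without it where it bears on them.

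Between the genotypes, no collagen, laminin or linker gene passed the test. The genes together reached 567, 459 and 478 CPM in the LCS libraries and 684, 431 and 412 CPM in the WT libraries. The mean was 501 ± 57.6 CPM in LCS and 509 ± 152 CPM in WT (SD, n = 3), and one WT library, replicate 1, lay above all others. In edgeR's quasi-likelihood test across 14539 genes, 0 of 47 genes had an adjusted p under 0.05, beside 2.21% of all genes tested (2.06% higher and 0.144% lower in LCS). At an unadjusted p under 0.05 there was 1, Col13a1, beside 24.1% of all genes. DESeq2's Wald test called 0 of the 42 to which it gave an adjusted p, beside 11.2% of all genes, and limma-voom 0 beside 2.75%. The LCS and WT libraries overlapped in all 47 genes, whereas 26.6% of all genes tested had no overlap. The median log2 fold change, LCS over WT, was -0.085 for the 47 genes and 0.012 for all genes tested. Of these genes 20 had a positive and 27 a negative value, from -0.92 for Col5a1 to 0.67 for Col12a1, and the smallest edgeR adjusted p was 0.189.

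The absence of a call does not show equal levels, and the intervals show how far each gene could differ. For 8 genes the 95% interval of the fold change lay within 1.5-fold in either direction, and for 20 within 2-fold. Among the narrow intervals were those of Lama4, Lamb1, Lamc1, Nid1, Fn1, Col4a1 and Col6a3, mostly chains of basement membranes. The interval of Col1a1 reached from -2.01 to 1.11 on the log2 scale, and all 8 tested fibrillar collagens had intervals that reached past 2-fold.

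**Figure D1:**
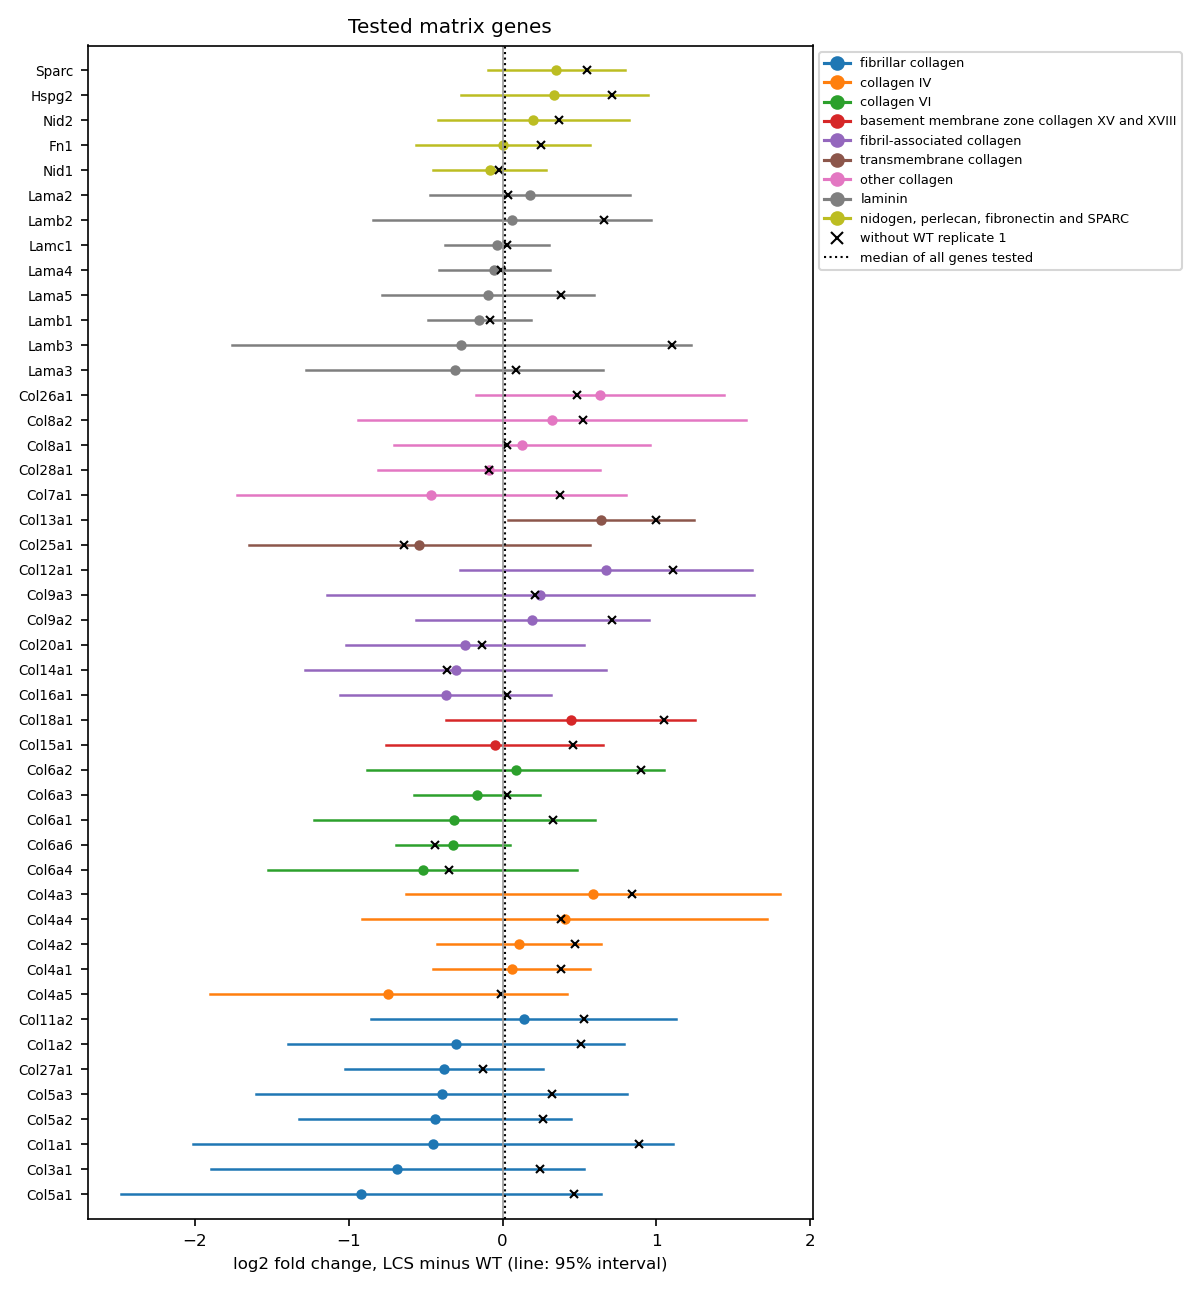
Log2 fold change (LCS over WT) of tested genes, grouped by role, with 95% intervals as bars; crosses give the value without WT replicate 1 and the dotted line the median of all genes. The wide intervals of the fibrillar collagens, whose values run from -0.92 to 0.14, stand beside narrow ones for laminin chains such as Lamc1 (-0.036).

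To compare genes with each other, levels were divided by transcript length (CPM per kb of the longest annotated transcript, mean of the 6 libraries). Sparc, a small collagen-binding glycoprotein, led with 21.7 CPM per kb (range over libraries 15.8 to 28.2). Col4a1 followed with 11.3 (8.35 to 15.4) and Col4a2 with 7.49 (5.03 to 10.4) CPM per kb. These ranges of neighbours overlap for Col4a1 and Col4a2, and the lowest library of Sparc lay just above the highest of Col4a1. Among those that followed were Col6a6 with 5.34, Lamc1 with 3.37, Col13a1 with 3.28, Lamb1 with 2.88 and Nid1 with 2.64 CPM per kb. Col1a1 and Col3a1, the main fibrillar chains of most connective tissue, had means of 1.76 and 1.99 CPM per kb. These lay below the means of the basement membrane chains Col4a1, Lamc1 and Nid1. Over libraries Col1a1 ran from 0.454 to 4.47 and Col3a1 from 0.727 to 4.76 CPM per kb, both highest in WT replicate 1. In that library both lay above Lamc1 (3.71) and Nid1 (2.94), so the order of the means did not hold there. Fn1 was low at 0.456 CPM per kb. Counts were unevenly spread: Col4a1 and Col4a2 held 24.4% of all counts on these genes, and the 10 genes with most counts held 67.7%.

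**Figure D2:**
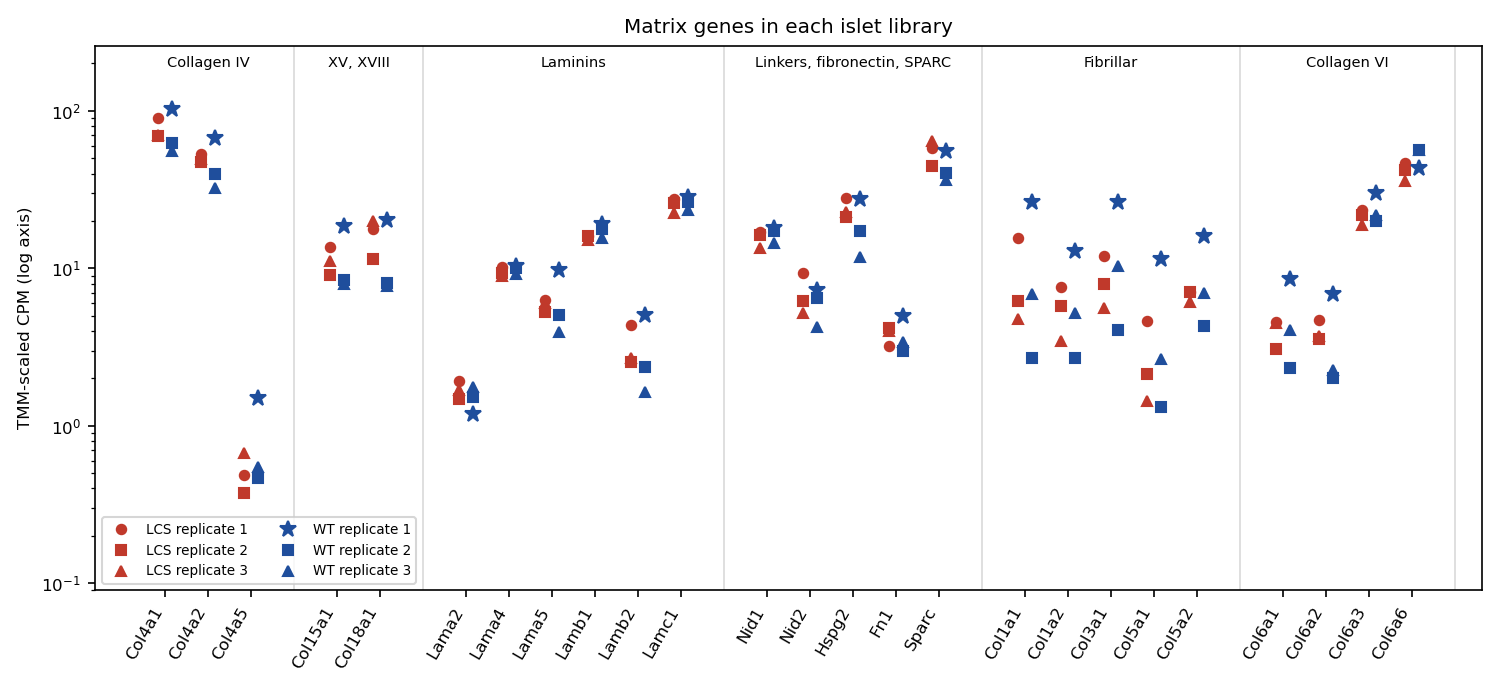
Scaled CPM (log axis) of matrix genes in each library, LCS in red and WT in blue, grouped by role; the star is WT replicate 1. The star lies above the other WT libraries for Col1a1 (26.5 CPM) and the other fibrillar collagens, and close to them for Lama4 (10.4 CPM) and Nid1 (17.9 CPM).

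The collagen IV chains form the network of all basement membranes. Col4a1 (gene 12826) had 89.6, 69.3 and 69.9 CPM in the LCS libraries and 102, 62.1 and 55.2 CPM in the WT libraries. The WT values spanned the LCS values, with WT replicate 1 highest and WT replicates 2 and 3 lowest. The log2 fold change was 0.060 (SE 0.23, 95% interval -0.45 to 0.57, edgeR adjusted p = 0.893). Col4a2 (gene 12827) followed the same order, since the LCS libraries had 53.1, 47.4 and 49.7 CPM and the WT libraries 67.1, 39.9 and 32.4 CPM (log2 fold change 0.11, SE 0.24, edgeR adjusted p = 0.814). Both signs turned, to -0.11 and -0.066, when libraries were scaled by their counts outside the ribosomal rows. The other chains, which form networks in kidney, lung and other specialised membranes, were far lower. Col4a5 had 0.489, 0.373 and 0.670 CPM in the LCS libraries and 1.5, 0.469 and 0.549 CPM in the WT libraries, and again WT replicate 1 alone was high (log2 fold change -0.74, SE 0.52, edgeR adjusted p = 0.402). Col4a3 and Col4a4 stayed at or below 0.574 CPM in every library, and Col4a6 was not tested.

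The pair Col4a1 and Col4a2 kept nearly the same proportion in every library. The ratio of their counts was 1.69, 1.46 and 1.41 in LCS and 1.52, 1.55 and 1.70 in WT. The log2 ratio differed by -0.071 between genotypes (exact two-sided permutation p = 0.50), with an SD of 0.11 over the 6 libraries. That SD was the smallest of the 8 chain ratios examined, although the counts of both genes varied between libraries. With 3 against 3 libraries the smallest possible p is 0.10, so no ratio could pass a threshold of 0.05.

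Collagens XV and XVIII sit at the junction of basement membranes with the surrounding matrix, and the end of the collagen XVIII chain can be released as endostatin. Col18a1 (gene 12822) had 17.9, 11.5 and 19.8 CPM in the LCS libraries and 20.2, 8.07 and 7.76 CPM in the WT libraries. Its 3 LCS values and WT replicate 1 were high, and WT replicates 2 and 3 were low (log2 fold change 0.44, SE 0.36, edgeR adjusted p = 0.476). For Col15a1 (gene 12819), the LCS libraries had 13.7, 9.05 and 11.2 CPM and the WT libraries 18.5, 8.49 and 7.97 CPM, with WT replicate 1 again above all others (log2 fold change -0.051, SE 0.32, edgeR adjusted p = 0.936). The balance of both genes was the one chain ratio of 8 whose genotypes did not overlap. Col15a1 counts per Col18a1 count were 0.765, 0.791 and 0.564 in LCS and 0.917, 1.05 and 1.03 in WT, that is, every LCS library was below every WT library, WT replicate 1 included. The difference in log2 ratio was -0.51 (exact two-sided permutation p = 0.10, which no outcome can undercut, and 0.640 after Benjamini-Hochberg adjustment over 8 ratios). Without WT replicate 1, Col18a1 was called higher in LCS and Col15a1 was not, at 1.05 (edgeR adjusted p = 0.0129) and 0.46 (0.137).

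**Figure D3:**
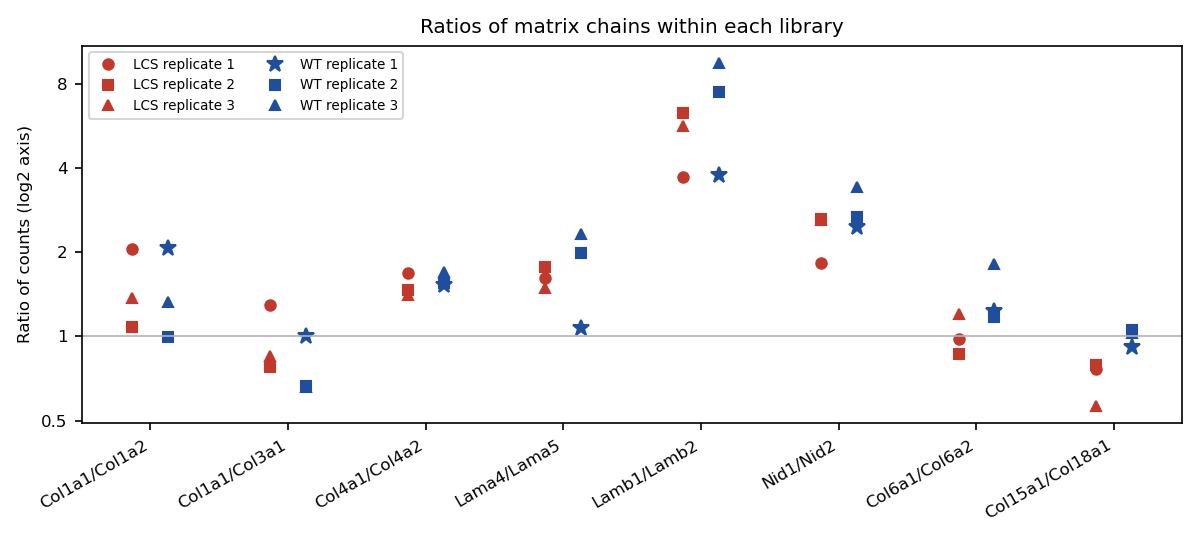
Ratio of the counts of 2 chains within each library (log axis) for 8 pairs, LCS in red and WT in blue. Col15a1/Col18a1 runs from 0.564 to 0.791 in LCS and from 0.917 to 1.05 in WT, while the other 7 ratios overlap.

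Laminins are built of an α, a β and a γ chain, and those with the α chains of Lama4 and Lama5 are typical of vessel walls. Lama4 (gene 16775) was among the steadiest of all genes described, with 10.2, 9.33 and 8.99 CPM in the LCS libraries and 10.4, 10.1 and 9.17 CPM in the WT libraries (log2 fold change -0.054, 95% interval -0.41 to 0.31, edgeR adjusted p = 0.861). Lamb1, the common β chain, was somewhat less even, since the LCS libraries had 16.2, 16.1 and 15.2 CPM and the WT libraries 19.2, 17.8 and 15.7 CPM (log2 fold change -0.15, 95% interval -0.48 to 0.18). Lamc1, the common γ chain, had 27.4, 26.1 and 22.6 CPM in the LCS libraries and 28.3, 26.5 and 23.4 CPM in the WT libraries (log2 fold change -0.036, 95% interval -0.37 to 0.30). WT replicate 1 was the highest library for all 3 chains, but lay close to the others. Their coefficients of variation were 6.78% in LCS and 6.43% in WT for Lama4, 3.57% and 10.1% for Lamb1, and 9.82% and 9.56% for Lamc1. The signs of all 3 were not stable, as each was positive with an offset for transcript length, at 0.16, 0.054 and 0.21.

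Other laminin chains were less even. Lama5 had 6.33, 5.26 and 6.03 CPM in the LCS libraries and 9.69, 5.08 and 3.94 CPM in the WT libraries, with WT replicate 1 highest (log2 fold change -0.093, SE 0.31, edgeR adjusted p = 0.875). In Lamb2, a β chain of vessels and nerve endings, the LCS libraries had 4.33, 2.55 and 2.68 CPM and the WT libraries 5.07, 2.37 and 1.65 CPM, with WT replicate 1 and LCS replicate 1 highest (log2 fold change 0.060, SE 0.41, edgeR adjusted p = 0.941). Lama2, the α chain of muscle and peripheral nerve, was low and was lowest in WT replicate 1, with 1.92, 1.47 and 1.69 CPM in the LCS libraries and 1.19, 1.53 and 1.78 CPM in the WT libraries (log2 fold change 0.18, SE 0.29, edgeR adjusted p = 0.737). The ratio of Lama4 to Lama5 counts was 1.62, 1.77 and 1.49 in LCS and 1.07, 1.98 and 2.32 in WT (difference in log2 ratio -0.069, exact two-sided permutation p = 0.90). For Lamb1 to Lamb2 it was 3.73, 6.31 and 5.65 in LCS and 3.78, 7.50 and 9.52 in WT (difference -0.34, exact two-sided permutation p = 0.40). In both ratios WT replicates 2 and 3 were the highest libraries and WT replicate 1 lay below the LCS values in the first and within them in the second. Lama3 and Lamb3 encode chains of an epithelial laminin. Both stayed at or below 2.31 CPM, and per kb of transcript their mean levels were 0.114 CPM for Lama3 and 0.195 CPM for Lamb3. Lama1 and Lamc3 were below the count filter.

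The linkers of the laminin and collagen IV networks showed no call. Nid1, which binds both networks, was even across libraries, with 17.1, 16.3 and 13.4 CPM in the LCS libraries and 17.9, 17.2 and 14.5 CPM in the WT libraries (log2 fold change -0.085, 95% interval -0.45 to 0.28, edgeR adjusted p = 0.780). For Nid2, its paralogue, the LCS libraries had 9.37, 6.21 and 5.17 CPM and the WT libraries 7.30, 6.46 and 4.23 CPM (log2 fold change 0.20, SE 0.28, edgeR adjusted p = 0.685), and LCS replicate 1 was highest. The ratio of Nid1 to Nid2 counts was 1.83, 2.62 and 2.60 in LCS and 2.46, 2.67 and 3.43 in WT, overlapping between genotypes (difference in log2 ratio -0.28, exact two-sided permutation p = 0.40). Hspg2, the core protein of the heparan sulfate proteoglycan perlecan, had 28.1, 21.1 and 22.6 CPM in the LCS libraries and 27.6, 17.3 and 11.9 CPM in the WT libraries. All LCS values lay above WT replicates 2 and 3, and WT replicate 1 lay among the LCS values (log2 fold change 0.34, SE 0.27, edgeR adjusted p = 0.472). Without WT replicate 1 its log2 fold change was 0.71 (edgeR adjusted p = 0.0344).

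Sparc, which binds collagens outside the cell, had 58.2, 44.8 and 64.8 CPM in the LCS libraries and 55.5, 40.2 and 36.2 CPM in the WT libraries. LCS replicates 1 and 3 were highest, and WT replicate 1 lay above LCS replicate 2 (log2 fold change 0.35, SE 0.20, edgeR adjusted p = 0.312, 95% interval -0.10 to 0.79). For Fn1, the cell-binding glycoprotein fibronectin, the LCS libraries had 3.22, 4.18 and 3.99 CPM and the WT libraries 4.97, 2.99 and 3.42 CPM (log2 fold change 0.0019, SE 0.25, edgeR adjusted p = 0.997), with full overlap of the groups. Its fold change had no stable sign, being -0.018 with DESeq2 size factors.

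Fibrillar collagens varied most between libraries. Col1a1 (gene 12842) had 15.7, 6.19 and 4.75 CPM in the LCS libraries and 26.5, 2.69 and 6.87 CPM in the WT libraries. WT replicate 1 was the highest library and WT replicate 2 the lowest, so the WT group alone spanned the LCS group (log2 fold change -0.45, SE 0.70, edgeR adjusted p = 0.720, 95% interval -2.01 to 1.11). For Col1a2, its partner chain in type I collagen, the LCS libraries had 7.62, 5.73 and 3.48 CPM and the WT libraries 12.8, 2.71 and 5.17 CPM (log2 fold change -0.30, SE 0.49, edgeR adjusted p = 0.731). In Col3a1, the chain of type III collagen of vessels and loose tissue, the LCS libraries had 12.1, 7.93 and 5.58 CPM and the WT libraries 26.5, 4.05 and 10.4 CPM (log2 fold change -0.68, SE 0.54, edgeR adjusted p = 0.464). Both had the order of Col1a1 within WT, with replicate 1 highest, replicate 3 next and replicate 2 lowest. The ratio of Col1a1 to Col1a2 counts was 2.06, 1.08 and 1.37 in LCS and 2.07, 0.991 and 1.33 in WT (difference in log2 ratio 0.051, exact two-sided permutation p = 0.80). For Col1a1 to Col3a1 it was 1.30, 0.780 and 0.851 in LCS and 1.0, 0.665 and 0.661 in WT (difference 0.32, exact two-sided permutation p = 0.40). In each ratio replicate 1 of a genotype was the highest of that genotype.

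The 11 fibrillar chains in the table summed to 71.7, 40.5 and 41.3 CPM in the LCS libraries and 126, 35.7 and 48 CPM in the WT libraries. Of these, 8 were tested, and their median log2 fold change was -0.42, with 7 negative and 1 positive values, and the edgeR adjusted p ran from 0.442 to 0.871. Without WT replicate 1 the median was 0.39, with 7 of 8 values positive and 0 called. The sign of this group therefore turned with a single library. The median coefficient of variation was 41% in LCS and 72.1% in WT, compared with 9.82% and 19.8% for the 9 tested laminins. Col11a1, Col24a1 and Col2a1, a cartilage collagen, were below the count filter.

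Collagen VI forms beaded filaments next to basement membranes, from the chains of Col6a1, Col6a2 and a further chain that is Col6a3 or a relative of it. Col6a1 had 4.58, 3.06 and 4.47 CPM in the LCS libraries and 8.52, 2.34 and 4.08 CPM in the WT libraries (log2 fold change -0.31, SE 0.41, edgeR adjusted p = 0.664). For Col6a2, the LCS libraries had 4.68, 3.54 and 3.70 CPM and the WT libraries 6.90, 2.0 and 2.25 CPM (log2 fold change 0.085, SE 0.43, edgeR adjusted p = 0.919), so WT replicate 1 was highest and WT replicates 2 and 3 lowest. Col6a3 was higher in counts and more even, with 23.4, 21.8 and 19 CPM in the LCS libraries and 30.1, 20.1 and 21.9 CPM in the WT libraries (log2 fold change -0.17, SE 0.18, edgeR adjusted p = 0.605). The ratio of Col6a1 to Col6a2 counts was 0.978, 0.867 and 1.21 in LCS and 1.23, 1.17 and 1.81 in WT (difference in log2 ratio -0.45, exact two-sided permutation p = 0.20). Among the relatives of Col6a3, Col6a6 stood out, named after its values were seen. It had 46.8, 42.3 and 36 CPM in the LCS libraries and 43.2, 56.8 and 56.4 CPM in the WT libraries, and WT replicate 1 was the lowest of the WT libraries (log2 fold change -0.32, SE 0.17, edgeR adjusted p = 0.265). Per kb its mean level of 5.34 CPM was above those of Col6a1 (1.10), Col6a2 (0.783) and Col6a3 (2.25). Col6a4 stayed at or below 0.624 CPM, and Col6a5 was below the count filter.

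Col13a1, a collagen that spans the cell membrane, had the smallest p of all these genes. Col13a1 (gene 12817) had 11.7, 11 and 15.2 CPM in the LCS libraries and 11.6, 7.28 and 5.41 CPM in the WT libraries. WT replicate 1 lay within the LCS values, and WT replicates 2 and 3 lay below (log2 fold change 0.64, SE 0.27, 95% interval 0.036 to 1.24, edgeR adjusted p = 0.189). The fibril-associated collagens, 6 of them tested, decorate fibrils, and their median log2 fold change was -0.026, from -0.37 to 0.67. The remaining 5 tested collagens (Col7a1, Col8a1, Col8a2, Col26a1 and Col28a1) ran from -0.46 to 0.63, and none of these had more than 2.68 CPM in a library. The 13 genes below the count filter, among them Col2a1, Col9a1, Col10a1 and Col17a1, had at most 24 counts in a library, and 12 of them had 15 or fewer in every library. With no count filter all 13 were tested by edgeR and 0 were called, and 1, Col6a5, reached an unadjusted p under 0.05. It had 24, 9 and 0 counts in the LCS libraries and 3, 1 and 2 in the WT libraries (edgeR adjusted p = 0.199), with overlapping groups.

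WT replicate 1 stood apart from the other WT libraries in many of the matrix genes, the fibrillar collagens most. It was the highest of the 6 libraries for 29 of the 47 tested genes (61.7%), against 13.6% of all genes tested. The median ratio of WT replicate 1 to the mean of WT replicates 2 and 3 was 1.74 for these genes and 0.991 for all genes. It exceeded 2 in 17 genes (36.2%), against 5.88% of all genes. By role, the median ratio was 3.09 for fibrillar collagens, 2.40 for collagens XV and XVIII, 1.74 for collagen IV, 1.60 for fibril-associated collagens, 1.43 for collagen VI, 1.45 for nidogens, perlecan, fibronectin and SPARC, 1.31 for transmembrane collagens, 1.24 for laminins and 0.999 for the remaining collagens. Among single genes it reached 5.77 in Col5a1, 5.66 in Lamb3 and 5.55 in Col1a1, and lay at 1.08 in Lama4 and 1.13 in Nid1. It was below 1 in Col6a6 (0.763) and Lama2 (0.717), among others.

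Markers of other cell types were read in the same libraries, and their part in these differences was not tested. The summed level of 12 fibroblast and stellate cell markers, 9 of them tested and 0 called (edgeR, with 0 at an unadjusted p under 0.05 and 0 called by DESeq2), was 25.4 to 27.2 CPM in LCS and 21.7 to 39.4 CPM in WT, with a ratio of WT replicate 1 to the mean of the other WT libraries of 1.78. Pdgfra, a defining receptor of these cells, had 0.944, 1.43 and 1.12 CPM in the LCS libraries and 7.51, 0.568 and 2.22 CPM in the WT libraries, so WT replicate 1 was again the one high library. Its ratio of 5.38 was the highest of the tested markers in this list, whose median gene ratio was 1.57. Lum, a proteoglycan of collagen fibrils, had 1.08 and Fap, a protease of activated fibroblasts, 0.446. Twist1 and Twist2 were at 0 in some libraries. The 16 endothelial markers, all tested and 0 called (edgeR, with 2 at an unadjusted p under 0.05 and 0 called by DESeq2), summed to 347 to 398 CPM in LCS and 291 to 353 CPM in WT, with a ratio of 1.11. The 12 pericyte and smooth muscle markers, 10 tested and 0 called (edgeR, with 3 at an unadjusted p under 0.05 and 0 called by DESeq2), summed to 33.2 to 46.5 CPM in LCS and 29.2 to 41.4 CPM in WT, with Cnn1 at 0 in some libraries. Of the 9 duct markers 7 were tested and 0 called (edgeR, with 2 at an unadjusted p under 0.05 and 1 called by DESeq2). Their sum was 529 to 646 CPM in LCS and 321 to 628 CPM in WT, with the highest WT value in replicate 1 and with Cftr and Onecut1 at 0 in some libraries. Acinar markers moved with genotype, since 13 of 13 tested were called higher in LCS (edgeR adjusted p under 0.05, beside 2.06% of all genes), with a sum of 488 to 866 CPM in LCS and 133 to 211 CPM in WT for all 14 and Ptf1a at 0 in some libraries. Their median log2 fold change was 2.09, and with an offset for transcript length it was 1.44, with 6 of 13 called. The 10 β cell markers were all present, at 175311 to 263797 CPM in LCS and 147933 to 172357 CPM in WT, with 0 called (edgeR, with 3 at an unadjusted p under 0.05 and 2 called by DESeq2). Nearly all of this sum was Ins1, Ins2 and Iapp, and log2 fold changes in the list ran from -0.77 (Slc2a2) to 0.63 (Ins2). Some endocrine markers also set WT replicate 1 apart. Its ratio to the other WT libraries was 1.87 for the summed delta and PP cell markers and 3.72 for somatostatin (Sst) alone. In the same list Pyy had 2.74 and Hhex 1.44, but Ppy had 0.691. The summed β cell markers had 0.884, but the β cell factors Mafa, Nkx6-1 and Pdx1 had 5.67, 2.54 and 1.79. The rest of the β cell list lay below 1, from 0.575 in Slc30a8 to 0.968 in Ins1. Duct markers had 1.73, pericyte and smooth muscle markers 1.35, alpha cell markers 0.808 and acinar markers 1.08. The median over single tested genes was 2.09 for delta and PP cell, 1.89 for duct and 1.68 for pericyte and smooth muscle markers. These lay above the 1.57 of the fibroblast and stellate list, and endothelial markers had 1.05. The single markers in this paragraph were named after their values were seen. Beside the counts given for these lists, 24.1% of all genes reached an unadjusted p under 0.05 in edgeR, and DESeq2 called 11.2%.

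**Figure D4:**
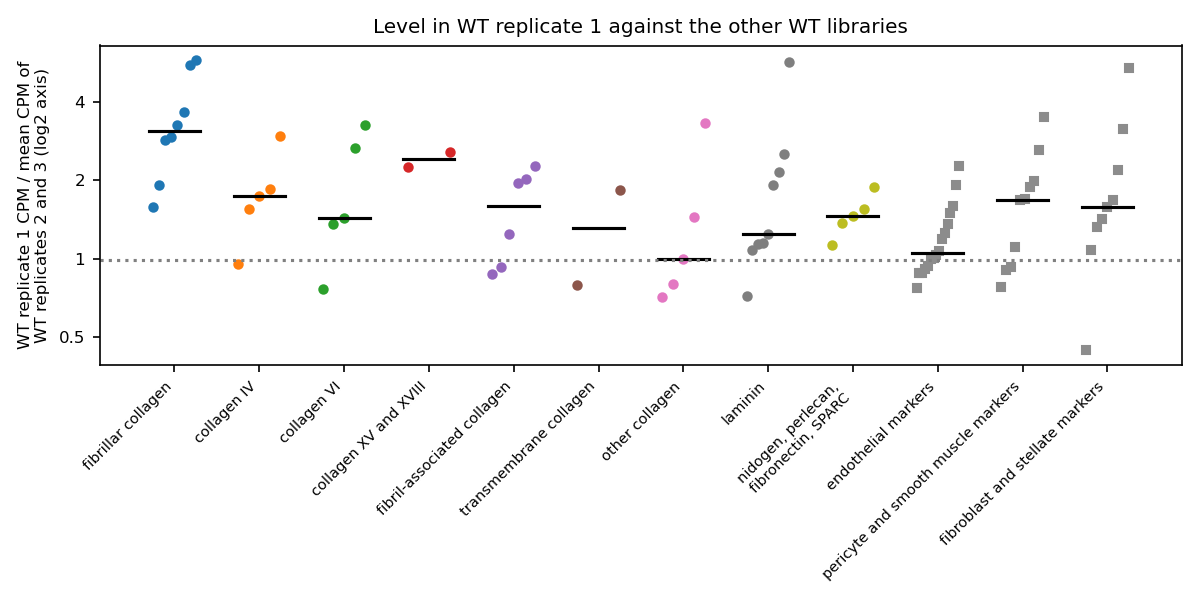
Level in WT replicate 1 divided by the mean of WT replicates 2 and 3 (log axis), one point per tested gene, by role, with endothelial, pericyte and fibroblast markers for comparison. Fibrillar collagens centre on a median of 3.09 and laminins on 1.24, and the median of all genes is 0.991.

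Leaving out WT replicate 1 changed which genes passed. Then 4 of 47 genes were called higher in LCS and 0 lower, beside 20.2% of all genes called (12.5% higher and 7.68% lower), so the share of 8.51% lay below the background. The log2 fold changes were Col18a1 1.05 (SE 0.23, edgeR adjusted p = 0.0129), Col13a1 0.99 (SE 0.22, edgeR adjusted p = 0.0113), Col6a2 0.90 (SE 0.26, edgeR adjusted p = 0.0334) and Hspg2 0.71 (SE 0.21, edgeR adjusted p = 0.0344). In these 4 genes each LCS library exceeded WT replicates 2 and 3. Positive values numbered 35 and negative values 12, and the median was 0.33 against 0.036 for all genes. WT replicate 1 had been set apart partly because it was high in many of these genes. Leaving it out therefore raises such values by construction, and the signs, medians and calls are no separate evidence. By role the median without this library was 0.38 for collagen IV, 0.37 for the linkers, and 0.032 for laminins. A fit that weights libraries by their quality gave WT replicate 1 a weight of 0.323 and WT replicate 2 one of 5.56. It called 9 genes higher (Col1a1, Col1a2, Col4a1, Col6a2, Col12a1, Col13a1, Col18a1, Hspg2 and Sparc) and 1 lower (Col6a6), beside 19.9% and 16.3% of all genes, or 36.2% in either direction (limma adjusted p under 0.05). Leaving out WT replicates 1 and 2, whose titles carry numbers far from the others, left a single WT library and called 2 genes higher (Col13a1 and Hspg2), beside 5.77% of all genes. The lone WT library is there assumed to vary like the LCS ones.

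Transcript length moved with genotype across all genes and bears on these long genes. The median log2 fold change of protein-coding genes went from 0.76 for transcripts under 1000 bases to -0.31 for those over 8000. Every tested matrix gene had at least 2300.0 bases, and their median length was 6048 bases, against 3437 for all genes tested. The 42 genes over 4000 bases had a median of -0.12, and the 5376 protein-coding genes of that length -0.21. With an offset for length the median of 46 matrix genes was 0.12 and 26 were positive. Again 0 were called by edgeR, beside 0.286% of all genes. When GC content was offset as well, the median was -0.035, with 0 called beside 1.58%.

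Genes that make, bind and break down this matrix were read from 6 lists, and edgeR, with TMM scaling, the count filter and all 6 libraries, called 0 of the 133 genes tested in them. An unadjusted p under 0.05 was reached by 15 of these (11.3%), beside 24.1% of all genes, so the lists held fewer such genes than the background. Other settings on all 6 libraries called up to 4 of them, apart from the fit with quality weights, and these calls are given below. Of 28 tested collagen-processing genes, an unadjusted p under 0.05 was reached by 3 in the direction of LCS and 1 in that of WT, with a median log2 fold change of 0.15. Values given for the genes of all 6 lists are log2 fold changes, LCS over WT. The lowest p belonged to Ppib, the prolyl isomerase of procollagen folding, at 0.65 (SE 0.16, edgeR adjusted p = 0.0657), and to P3h4, a partner of the collagen hydroxylases, at 0.67 (SE 0.17, edgeR adjusted p = 0.0721). Ctage5, a factor in procollagen export from the endoplasmic reticulum, had -0.38 (SE 0.15, edgeR adjusted p = 0.167). Ppib was past the threshold with no count filter (edgeR adjusted p = 0.0480) and with the offset for length and GC content (edgeR adjusted p = 0.0438). Without WT replicate 1, Ppib and P3h4 were called higher, at 0.77 (edgeR adjusted p = 0.0100) and 0.77 (edgeR adjusted p = 0.0140). The collagen chaperone Serpinh1 and the hydroxylases P4ha1 and Plod2 had 0.071, 0.20 and -0.39 and were named after their values were seen.

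Among 25 tested matrix receptors, 0 reached that p toward LCS and 3 toward WT, and the median was -0.16. Itga10, an integrin α chain that binds collagen, had -1.51 (SE 0.34, edgeR adjusted p = 0.0521). Itga2, another collagen-binding integrin chain, had -0.68 (SE 0.27, edgeR adjusted p = 0.165), and Itgav, which pairs with several β chains to bind fibronectin and vitronectin, -0.54 (SE 0.21, edgeR adjusted p = 0.167). Itga10 lay close to the threshold and was called lower with DESeq2 size factors (edgeR adjusted p = 0.0498), with no count filter (0.0273), with a filter of 1 CPM in 3 libraries (0.0441), and without WT replicate 1, at -1.63 (edgeR adjusted p = 0.0121). It was not called when any other single library was left out, with edgeR adjusted p from 0.0606 to 0.222. Of 26 matrix-degrading enzymes and their inhibitors, 1 reached that p toward LCS and 0 toward WT, with a median of -0.078. Mmp3 (stromelysin) had 1.0 (SE 0.43, edgeR adjusted p = 0.190) and was called higher without WT replicate 1, at 1.68 (edgeR adjusted p = 0.00730). Timp2, an inhibitor of these enzymes, had 0.40 (SE 0.21, edgeR adjusted p = 0.277). Mmp2, a gelatinase made by stromal cells, had 2.38, 0.766 and 2.2 CPM in the LCS libraries and 10.1, 0.592 and 2.06 CPM in the WT libraries, the same single high library as in Col1a1. Its log2 fold change was -1.30 (SE 0.82, edgeR adjusted p = 0.356) and became 0.40 (edgeR adjusted p = 0.650) without WT replicate 1.

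Of 16 other basement membrane genes, 0 reached an unadjusted p under 0.05 toward LCS and 1 toward WT. This was Agrn, the heparan sulfate proteoglycan agrin, at -0.68 (SE 0.26, edgeR adjusted p = 0.155). Agrn had 17.1 CPM in WT replicate 1 and 9.50 and 9.54 CPM in WT replicates 2 and 3. Its log2 fold change was -0.33 (edgeR adjusted p = 0.242) without WT replicate 1. Npnt, a ligand of an integrin in basement membranes, had -0.42 (SE 0.19, edgeR adjusted p = 0.218), and Fbln5, a fibulin of elastic fibres, 0.66 (SE 0.31, edgeR adjusted p = 0.223). Of 20 genes of the interstitial matrix, 1 reached that p in each direction, namely Mgp, an inhibitor of calcification, at 0.67 (SE 0.27, edgeR adjusted p = 0.178) and Vcan, the proteoglycan versican, at -1.02 (SE 0.44, edgeR adjusted p = 0.196). Mfap2, a protein of microfibrils, had 0.85 (SE 0.42, edgeR adjusted p = 0.250). The log2 fold change of Mgp was -0.26 with an offset for transcript length. For Vcan and Mgp it was -0.49 (edgeR adjusted p = 0.391) and 0.51 (edgeR adjusted p = 0.200) without WT replicate 1. Of 18 genes of TGF-beta signalling, a pathway that drives collagen genes in stromal cells, 0 reached that p toward LCS and 4 toward WT. The lowest p belonged to Tgfbr1, its type I receptor, at -0.80 (SE 0.24, edgeR adjusted p = 0.10), followed by Smad2, a signal carrier, at -0.42 (SE 0.15, edgeR adjusted p = 0.134) and Skil, a repressor, at -0.50 (SE 0.20, edgeR adjusted p = 0.168). Without WT replicate 1, Tgfbr1 was called lower, at -0.96 (edgeR adjusted p = 0.0154).

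Over the 6 lists, DESeq2's Wald test called Ppib and P3h4 higher and Itga10 and Tgfbr1 lower, and 0 other genes. These 4 were 3.33% of the 120 list genes to which it gave an adjusted p, beside 11.2% of all genes. The calls of Itga10 and Ppib by edgeR with all 6 libraries stood beside 2.11% of all genes with DESeq2 size factors, 3.61% with no filter, 2.44% with the 1 CPM filter and 1.58% with the offset for length and GC content. With quality weights limma called 31 list genes higher and 10 lower (30.8%), beside 36.2% of all genes. In edgeR without WT replicate 1, 11 of 134 list genes were called higher and 2 lower (9.70%), below the 20.2% of all genes. The calls not yet named, chosen after their values were seen, were all higher. Log2 fold changes were Tmem38b 0.64 and Loxl1 2.43 in collagen processing, and Itgb4 1.26, Bcam 1.18 and Sdc1 1.01 among receptors. Vwa1 had 1.13 in the basement membrane list, and Tgfb1 0.96 and Ltbp3 0.61 in TGF-beta signalling. Over all 6 libraries these genes had, in the same order, 0.49, 0.57, 0.32, 0.42, 0.039, 0.75, 0.15 and 0.21, and edgeR called none. WT replicate 1 was the highest WT library in each, so leaving it out raises the values by construction. Loxl1 had only 0.395 and 0.287 CPM in WT replicates 2 and 3.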

How the data were processed

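The authors deposited raw counts for 24407 genes in 1 table, from poly(A) RNA of 6 libraries made with a stranded TruSeq kit, per the labels' protocols. The submitters' processing notes give the mm9 build and, as tools, HTSeq 0.9.0, Bowtie2 2.2.9, TopHat2 2.1.1, FastQC and bcl2fastq 2.20. Which annotation and strand setting HTSeq ran with is not given in the sources used here. Reads of overlapping genes, on either strand, may therefore be mixed. The labels gave the groups, and accession order the replicate numbers.

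In R 4.3.3, edgeR 4.0.16 removed genes with low counts (filterByExpr, which left 14539), scaled libraries by TMM (factors 0.633 to 1.5) and fitted its quasi-likelihood model on genotype alone. Benjamini-Hochberg adjustment ran over all genes tested, with a threshold of 0.05. Intervals are 95% intervals of the log2 fold change. Count ratios of 8 chain pairs were tested by exact two-sided permutation in SciPy 1.17.1. The replicates were pools of different mice. Lengths and GC content came from the longest GENCODE M21 transcript, and names and promoters from RefSeq GRCm38.p6 (24320 names matched), which differs from mm9, so no coordinates from it were joined to the counts. Alternatives were DESeq2 1.42.0 (size factors and Wald test), limma-voom (limma 3.58.1) with and without quality weights, library sizes outside the ribosomal rows, other filters, gene sets and offsets (loess span 0.5), a test against a 1.5-fold change, and leaving out libraries. The steps were tested on simulated counts, with changes set in genes drawn at random from all those tested. Of the 1.5-fold changes 10.5% were called, of the 2-fold changes 46.4% and of the 4-fold changes 87.6%. The matrix genes varied more than genes at large. Their median coefficient of variation was 39.2% in WT and 26.8% in LCS, against 16.3% and 16.6% for all genes tested. These rates therefore do not give the share of changes that would be found among the matrix genes. Figures were drawn with matplotlib 3.10.9.

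Named with values were 22 chains known from islet and vascular basement membranes or as main stromal collagens, any other gene of the set with an unadjusted p under 0.05, and the 3 genes with the smallest p of each of 6 pathway lists. The genes and lists were chosen with earlier results of these data known. One gene of the set counts in the totals and role summaries and is not reported here by itself.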

Additional observations from a re-analysis of the deposited data

How the results depend on the processing

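The 14539 genes tested gave 321 calls, and this count was 141 with library sizes outside the ribosomal rows, 1508 with the DESeq2 Wald test, 5257 with limma-voom and quality weights, 686 without a count filter, 39 with a length offset, 63 against a 1.5-fold change and 1215 without WT replicates 1 and 2. Leaving out single libraries gave 82 to 2999 calls. Matrix genes called higher numbered 9 with quality weights, 2 without WT replicates 1 and 2, and 0 to 4 when single libraries were left out. Those called lower numbered 1 with quality weights and 0 in every other setting run. The median log2 fold change of the matrix genes was -0.085 with all libraries. It turned to 0.33 without WT replicate 1 and to 0.33 with quality weights. In all settings run it moved by less than 0.529, the SD between libraries of a group of these genes' median log2 CPM. That SD is not a spread of the fold change and includes WT replicate 1, so it does not show a stable median. The 8 chain ratios moved by less than their SD within genotypes when single libraries were left out. In groups this small, leaving out a single library cannot move the difference by as much as that SD. The outcome was thus fixed in advance and does not show stable ratios.

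Signs of single genes turned in several settings, and the cause was not tested. With DESeq2 size factors the log2 fold change was Fn1 -0.018, with its Wald test Fn1 -0.018, and without a count filter Fn1 -0.0049. With library sizes outside the ribosomal rows, signs turned for Col4a1 -0.11, Col4a2 -0.066, Col6a2 -0.093, Fn1 -0.16 and Lamb2 -0.11. Quality weights turned Col15a1 0.46, Col1a1 1.56, Col1a2 0.94, Col3a1 0.90, Col6a1 0.61, Col6a3 0.10, Lama5 0.25, Lamc1 0.0097 and Mmp2 1.11. A length offset turned Col15a1 0.12, Col6a3 0.11, Lama4 0.16, Lama5 0.18, Lamb1 0.054, Lamc1 0.21, Nid1 0.12 and Mgp -0.26, and the offset for both length and GC Lama4 0.11, Lamc1 0.071, Nid1 0.062 and Mgp -0.12. Without WT replicates 1 and 2, values turned for Col15a1 0.50, Col1a1 0.36, Col1a2 0.12, Lama2 -0.072, Lama4 0.055, Lama5 0.57, Lamb1 0.013, Lamc1 0.12 and Nid1 0.11. When single libraries were left out, the values that crossed zero ran over these ranges: Col4a1 -0.11 to 0.38, Col6a2 -0.21 to 0.90, Lamb2 -0.23 to 0.66, Nid2 -0.052 to 0.38, Col15a1 -0.26 to 0.46, Fn1 -0.14 to 0.25, Lama5 -0.34 to 0.38, Lamc1 -0.11 to 0.050, Nid1 -0.17 to 0.022, Col1a1 -1.12 to 0.89, Col1a2 -0.68 to 0.51, Col3a1 -1.12 to 0.24, Col6a1 -0.65 to 0.33, Col6a3 -0.28 to 0.031, Mmp2 -1.81 to 0.40 and Col4a2 -0.10 to 0.47.

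No paired analysis was possible because the titles give the groups no shared replicate numbers, and replicates were numbered in accession order. Every alternative was run. With 3 pools per genotype, the intervals of all 8 tested fibrillar collagens reached past 2-fold. The ribosomal share, transcript length and genotype moved together and cannot be told apart.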

Other observations

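Several low collagens had values that the comparisons above do not describe. Col26a1, a collagen of unusual domain order, was measured at 1.36, 0.923 and 1.18 CPM in LCS and 0.582, 0.987 and 0.653 CPM in WT, with overlapping groups (log2 fold change 0.63, SE 0.36, edgeR adjusted p = 0.309). Col12a1, a fibril-associated collagen of tendon and loaded tissue, was measured at 1.47, 1.14 and 0.861 CPM in LCS and 1.08, 0.395 and 0.679 CPM in WT (log2 fold change 0.67, SE 0.43, edgeR adjusted p = 0.358). Col27a1, a fibrillar chain, was less uneven than Col1a1, at 15.8, 7.74 and 14.2 CPM in LCS and 21.5, 15.5 and 11.9 CPM in WT (log2 fold change -0.38, SE 0.29, edgeR adjusted p = 0.442). These 3 genes were chosen after their values were seen.

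Markers of further cell types were also measured, with calls by edgeR at an adjusted p under 0.05. The 8 Schwann cell markers summed to 8.96 to 12.4 CPM in LCS and 8.59 to 11.8 CPM in WT, with 7 tested and 0 called. Macrophage markers summed to 80.8 to 98.5 CPM in LCS and 55.5 to 67.4 CPM in WT, and 1 of 10, Lyz2, was called higher. The list was mixed in direction. Log2 fold changes of Lyz2, C1qa, C1qb, C1qc and Aif1 were positive, from 0.38 to 1.48. Those of Adgre1, Csf1r, Cd68, Fcgr1 and Mrc1 were negative, from -0.92 to -0.030. Lymphocyte markers summed to 12.1 to 15.2 CPM in LCS and 9.64 to 11.3 CPM in WT with 0 of 7 called, and mesothelial markers to 6.29 to 16.8 CPM in LCS and 4.02 to 6.05 CPM in WT with 0 of 1 called and the other 4 at 0 in some libraries. Of the 6 adipocyte markers Plin1 and Cfd were at 0 in all libraries, and Adipoq, Cidec and Lep were at 0 in some. The list summed to 14.2 to 16.4 CPM in LCS and 6.97 to 11.7 CPM in WT with 0 of 1 called. Nearly all of this was Fabp4, with 16.4, 14.1 and 14.1 CPM in the LCS libraries and 6.86, 11.7 and 11.4 CPM in the WT libraries. Alpha cell markers summed to 16281 to 21633 CPM in LCS and 12424 to 16299.6 CPM in WT with 0 of 5 called, and delta and PP cell markers to 4869.9 to 8136 CPM in LCS and 1084 to 2708 CPM in WT with 1 of 4 called higher. At an unadjusted p under 0.05 there were 0 Schwann, 4 macrophage, 1 lymphocyte, 1 mesothelial, 1 adipocyte, 3 alpha cell and 3 delta and PP cell markers, and DESeq2 called 0, 2, 1, 1, 0, 0 and 2 of them. Of the 4 macrophage markers 3 were higher and 1 lower in LCS, and those of the other lists were higher. Among all genes, 24.1% reached that p, DESeq2 called 11.2%, and edgeR called 2.06% higher.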
